A study of Homo sapiens with 12 samples.

Results

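The erasers of N6-methyladenosine (m6A) and the methyltransferases that work apart from METTL3 were followed through 6 genes. FTO and ALKBH5 are the erasers, METTL5 with its cofactor TRMT112 and ZCCHC4 are ribosomal RNA methyltransferases, and PCIF1 methylates the mRNA cap. The genes were chosen by name, with earlier results of these data known. All 6 were found among the 60662 Ensembl genes of the count files and the 12224 genes of the series table. The material was HEK293T, an established human embryonic kidney cell line, wild type in both arms. One arm was given STM2457, which blocks METTL3 catalysis, at 20 µM in 0.2% DMSO, and the other 0.2% DMSO alone, for 6 h.  Both arms were grown with 10% fetal bovine serum, had another 10% added 1 h before lysis, and were exposed to cycloheximide at 100 µg/ml for 3 min to hold ribosomes on mRNA. RNA was measured by poly(A)-selected RNA-seq in 4 libraries per arm and ribosome footprints of 26 to 34 nt in 2 libraries per arm. Whether replicates came from separate cultures is not in the labels, and the p-values then cover only library-to-library spread, which could be technical. The comparison addressed how transcripts and their translation differ between STM2457 and DMSO. These libraries do not measure m6A, so depletion of the METTL3-dependent mark was not checked in them.

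Most m6A in mRNA is written by the METTL3-METTL14 complex, and FTO and ALKBH5, both dioxygenases of the AlkB family, can remove it. FTO also acts on m6Am, the doubly methylated adenosine next to the cap. METTL5 and ZCCHC4 each place a single m6A in ribosomal RNA, METTL5 in the small subunit and ZCCHC4 in the large one, and METTL5 needs TRMT112 for its stability. TRMT112 is a shared activator of several methyltransferases that modify RNA or protein. PCIF1 binds the transcribing RNA polymerase and adds the N6-methyl group of m6Am when the first nucleotide of a transcript is adenosine.

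The RNA-seq libraries held 43112223 to 51425432 gene counts and the footprint libraries 3198063 to 4711513 reads. Markers of HEK293-type cells were all detected, with a summed level of 1127.1 to 1179.8 CPM (counts scaled to library size) with DMSO and 1160.5 to 1226.9 CPM with STM2457. Their DMSO means were uneven, from 543.5 CPM for VIM to 4.71 CPM for PAX2. PAX2 was below the fibroblast marker COL1A1 (17 CPM) and the epithelial marker CDH1 (5.73 CPM). Fibroblast markers summed to 17.5 to 22.0 CPM with DMSO and 18.1 to 19.7 CPM with STM2457, blood markers to at most 3.28 CPM in any library, and epithelial carcinoma markers to at most 7.95 CPM, with HBG1, KRT7 and KRT19 at 0 in every library. STM2457 acts on the METTL3 enzyme and not on its RNA. METTL3 RNA averaged 75.7 ± 6.71 CPM in the DMSO arm and 83.3 ± 6.71 CPM in the treated arm (SD, n = 4 each, edgeR quasi-likelihood adjusted p = 0.104), so its RNA level is no check of the treatment. ERCC spike-in sequences took 0.389% to 0.408% of counts with DMSO and 0.415% to 0.466% with STM2457. With these spike-ins as the scale in place of the TMM method of edgeR, the median tested gene moved from 0.00 to -0.19 on the log2 scale, and the share of calls that were higher fell from 54.9% to 20.5%. Less RNA per cell and fewer cells lysed cannot be told apart in such bulk libraries, so the values below are relative to the other genes unless the spike-in scale is named.

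The stretches around the transcription starts of the genes whose RNA changed are shown because 2 pairs of them share a short motif. All 6 genes were matched in the RefSeq promoter table of GRCh38.p14. Each line runs 5′ to 3′ on the gene's own strand from 120 bases before the start to 20 bases from it, with motifs in capitals. The spans are chr17:18183708-18183847 (plus strand) for ALKBH5, chr20:45934563-45934702 (plus) for PCIF1, chr2:169824886-169825025 (minus) for METTL5, and chr11:64317540-64317679 (minus) for 1 of the 2 listed starts of TRMT112.
ALKBH5: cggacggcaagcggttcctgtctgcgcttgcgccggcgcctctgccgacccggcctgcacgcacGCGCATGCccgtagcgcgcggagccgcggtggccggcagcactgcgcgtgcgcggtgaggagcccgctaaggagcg
PCIF1: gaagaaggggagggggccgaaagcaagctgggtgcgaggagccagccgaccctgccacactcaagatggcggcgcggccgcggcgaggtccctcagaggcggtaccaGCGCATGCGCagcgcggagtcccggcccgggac
METTL5: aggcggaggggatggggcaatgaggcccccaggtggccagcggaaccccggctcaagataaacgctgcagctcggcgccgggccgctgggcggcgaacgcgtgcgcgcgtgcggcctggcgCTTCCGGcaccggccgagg
TRMT112: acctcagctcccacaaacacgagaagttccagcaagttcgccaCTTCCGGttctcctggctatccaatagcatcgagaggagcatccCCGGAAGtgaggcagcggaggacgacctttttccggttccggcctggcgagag
Positions count the start as 1 and have no 0. GCGCATGC, the letters of an NRF1-type motif, lay at -56 in ALKBH5 and at -13 in PCIF1, where its reverse complement GCATGCGC overlapped it at -11. Searched on both strands in the 300-base windows of the table, it was in 3.05% of 35116 promoters. CTTCCGG, the letters of an ETS-type motif, lay at 2 in METTL5 and at -77 in the TRMT112 window shown, which also held the reverse complement CCGGAAG at -33. The other TRMT112 start had CTTCCGG at -75. It was in 10.3% of the same promoters. FTO and ZCCHC4 held neither. Both motifs were picked after the promoters had been read, and a match is a run of letters, not a binding site. The 300-base windows held 22 CpG in FTO, 39 in ALKBH5, 32 in METTL5, 25 in ZCCHC4, 26 in PCIF1 and 22 or 28 at the 2 TRMT112 starts, against a median of 14 over all promoters.

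At the RNA level the erasers differed from each other, and so did METTL5 and its cofactor. ALKBH5 rose 1.34-fold and METTL5 fell to 0.749 of its DMSO level, while PCIF1 rose 1.11-fold and TRMT112 1.05-fold. FTO and ZCCHC4 were slightly lower without passing the test. By edgeR's quasi-likelihood test at a Benjamini-Hochberg adjusted p under 0.05, 3 of the 6 genes were higher and 1 was lower. Of the 17807 genes tested, 47.8% were called, 26.2% as higher and 21.6% as lower, so a call was common in these data and the count of 4 is not particular to the 6 genes. The libraries of the 2 arms did not overlap for 4 of the 6 genes, with STM2457 higher for 3 and lower for 1, against 44.7% of all tested genes, of which 24.9% were higher and 19.8% lower. The median log2 fold change of the 6 genes was -0.01, and that of all tested genes was 0.00. With spike-in scaling 1 of the 6 was higher and 4 were lower (median -0.21), where 59.2% of all tested genes were called, 12.1% as higher and 47.1% as lower.

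**Figure D1:**
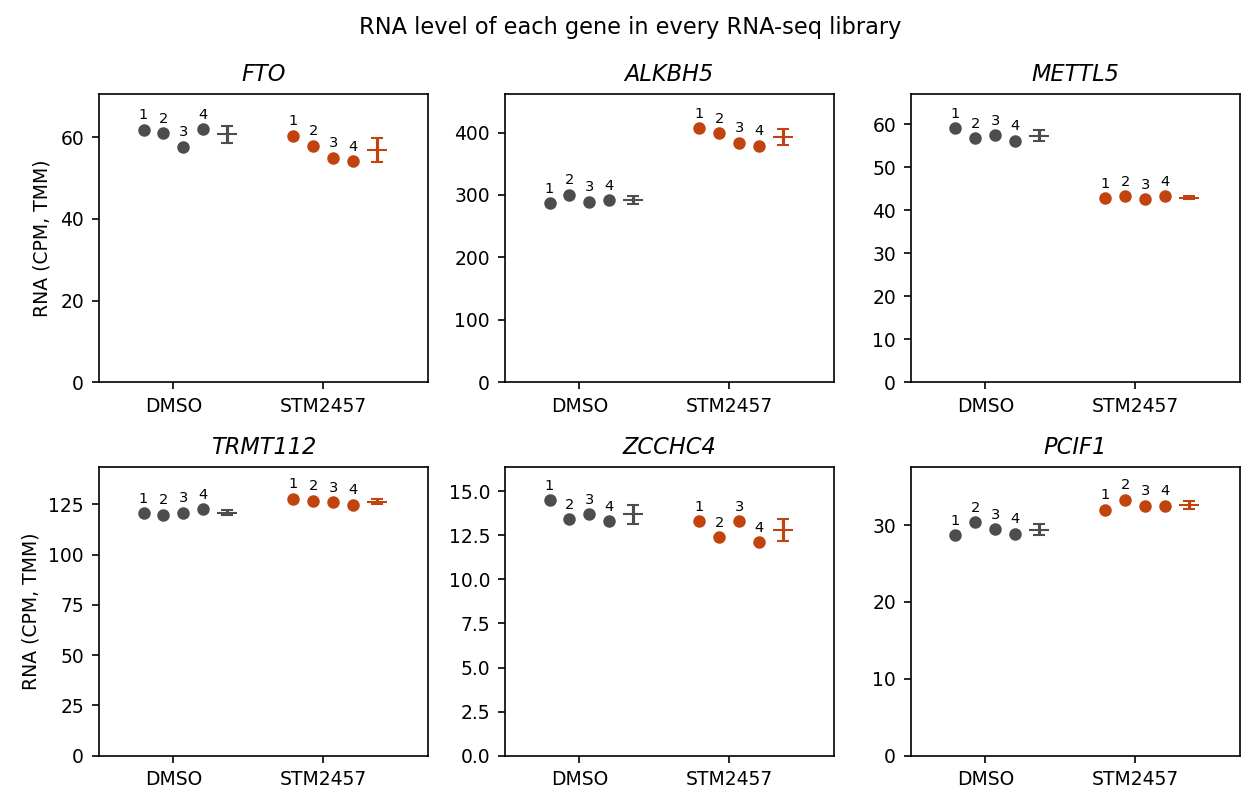
RNA level in CPM with TMM scaling (vertical axes, each starting at 0) of the 6 genes in the 4 DMSO and 4 STM2457 RNA-seq libraries. Points are single libraries with their replicate number, and bars give the mean and SD. The arms stand apart for ALKBH5, METTL5, TRMT112 and PCIF1, and overlap for FTO and ZCCHC4.

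ALKBH5 (ENSG00000091542.9, chromosome 17, start at 18183828 in GRCh38.p14), the eraser known for nuclear mRNA demethylation, was at 287.0, 300.4, 289.3 and 291.5 CPM in DMSO replicates 1 to 4. It was at 406.9, 398.7, 383.9 and 379.1 CPM in STM2457 replicates 1 to 4. Every STM2457 library lay above every DMSO library. Its log2 fold change was 0.43 (SE 0.03, 95% confidence interval 0.37 to 0.48, edgeR adjusted p = 5.35e-08), which placed it at rank 1915 by size among the 4669 higher genes. It was 0.44 in replicates 1 and 2 and 0.39 in replicates 3 and 4. Scaled to the spike-ins it was 0.23 (edgeR adjusted p = 0.000433), still higher.

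FTO (ENSG00000140718.21, chromosome 16, start at 53704156) was at 61.9, 61.0, 57.7 and 62.0 CPM with DMSO. With STM2457 it was at 60.4, 57.9, 55.0 and 54.2 CPM. The arms overlapped, since STM2457 replicates 1 and 2 were above DMSO replicate 3. The log2 fold change of -0.09 (95% confidence interval -0.18 to -0.01) did not pass (edgeR adjusted p = 0.0714). Without DMSO replicate 3 it was -0.12 (edgeR adjusted p = 0.0261), and without STM2457 replicate 1 it was -0.12 (edgeR adjusted p = 0.0222), so the FTO call turns on these single libraries. Scaled to the spike-ins FTO passed as lower, at -0.29 (edgeR adjusted p = 0.000146).

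Within each library the balance of the erasers shifted toward ALKBH5. The ratio of ALKBH5 to FTO reads, which does not depend on any scaling of the libraries, ran from 4.63 to 5.01 with DMSO and from 6.74 to 6.99 with STM2457. The arms did not overlap, and the mean log2 ratio was 0.52 higher with STM2457. Such ratios compare reads and not molecules, because the genes differ in length. The pairs were chosen after the changes of the single genes had been seen, so the ratios restate those changes and have no test.

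METTL5 (ENSG00000138382.15, chromosome 2, start at 169824905), the small-subunit ribosomal RNA methyltransferase, was at 59.1, 56.7, 57.4 and 56.1 CPM with DMSO. With STM2457 it was at 42.8, 43.2, 42.5 and 43.3 CPM. The STM2457 libraries lay within 1 CPM of each other and all below the DMSO libraries. METTL5 RNA fell by 0.42 on the log2 scale (SE 0.03, 95% confidence interval -0.48 to -0.35, edgeR adjusted p = 1.06e-07), at rank 1343 by size among the 3842 lower genes. It fell by 0.44 in replicates 1 and 2, by 0.40 in replicates 3 and 4 and by 0.61 on the spike-in scale.

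TRMT112 (ENSG00000173113.6, chromosome 11), the cofactor that METTL5 shares with other methyltransferases, was at 120.5, 119.8, 120.8 and 122.5 CPM with DMSO. With STM2457 it was at 127.8, 126.9, 126.0 and 124.9 CPM. The STM2457 libraries were all higher, but by little. The log2 fold change of 0.06 (95% confidence interval 0.02 to 0.11) passed narrowly (edgeR adjusted p = 0.0309) and ranked 4662 by size among the 4669 higher genes. The call was lost when any of DMSO replicates 1 to 4 or STM2457 replicates 1 and 2 was left out (edgeR adjusted p up to 0.0809), and on the spike-in scale the direction turned to -0.13 (edgeR adjusted p = 0.0302).

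The ratio of METTL5 to TRMT112 reads ran from 0.458 to 0.491 with DMSO and from 0.334 to 0.346 with STM2457. The mean log2 ratio differed by -0.48, given as a description for the same reason. METTL5 reads were thus fewer relative to those of its cofactor in every STM2457 library, on a measure that no library scaling can alter.

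ZCCHC4 (ENSG00000168228.15, chromosome 4, start at 25312774), the large-subunit ribosomal RNA methyltransferase, was at 14.5, 13.4, 13.7 and 13.3 CPM with DMSO. With STM2457 it was at 13.3, 12.4, 13.3 and 12.1 CPM. The arms overlapped, and the log2 fold change of -0.10 (95% confidence interval -0.22 to 0.01) did not pass (edgeR adjusted p = 0.126). It was -0.30 and passed with spike-in scaling (edgeR adjusted p = 0.00217).

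PCIF1 (ENSG00000100982.12, chromosome 20, start at 45934683), the cap-adjacent adenosine methyltransferase, was at 28.7, 30.4, 29.5 and 28.9 CPM with DMSO. With STM2457 it was at 32.0, 33.3, 32.5 and 32.5 CPM. The arms did not overlap, and PCIF1 rose by 0.15 on the log2 scale (95% confidence interval 0.07 to 0.22, edgeR adjusted p = 0.00294), at rank 4011 of the 4669 higher genes. The change was 0.13 in replicates 1 and 2 (edgeR adjusted p = 0.0475) and 0.15 in replicates 3 and 4 (edgeR adjusted p = 0.0511). Against the spike-ins it was -0.05 and did not pass (edgeR adjusted p = 0.513), so its rise holds relative to other genes but not relative to the spike-ins.

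**Figure D2:**
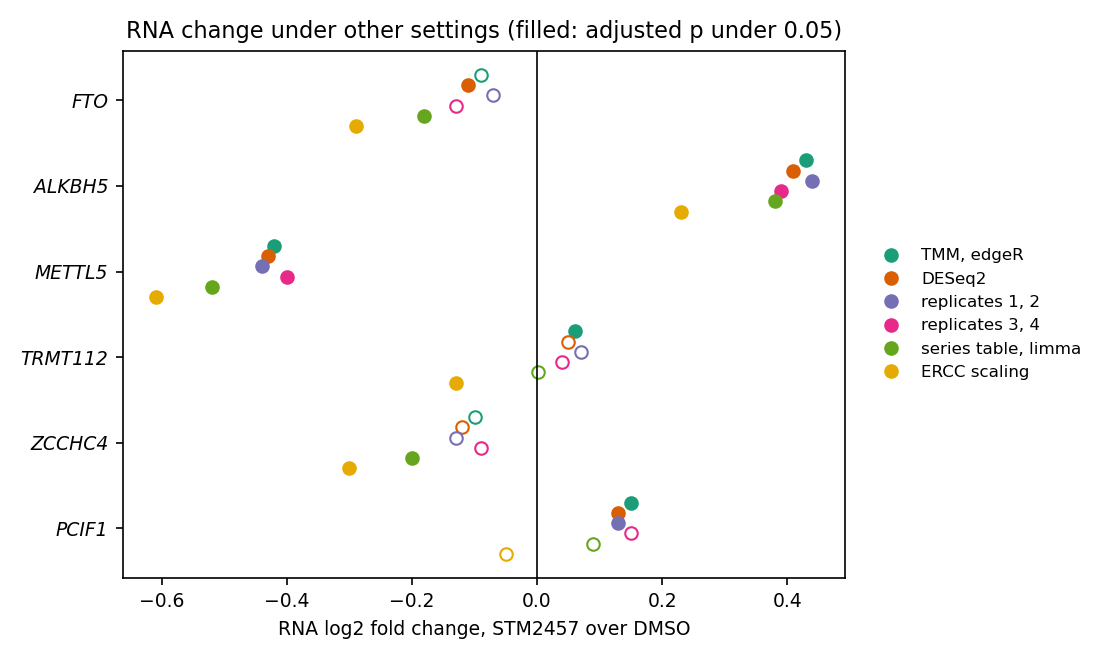
RNA log2 fold change of STM2457 over DMSO (horizontal axis) of the 6 genes under 6 settings, filled where the adjusted p is under 0.05. ALKBH5 stays above 0 and METTL5 below 0 under each setting drawn, while TRMT112 and PCIF1 lie on both sides of 0.

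Neighbouring and copied genes bear on how the counts are read, since the sources used here do not state whether strand was used in counting. METTL5 and SSB, which encodes the La protein, overlap over 308 bases of their gene spans in RefSeq. SSB averaged 364.5 ± 14.4 CPM in the DMSO libraries and 346.8 ± 28.3 CPM in the treated ones (SD, n = 4 each, log2 fold change -0.07, edgeR adjusted p = 0.272). The short TRMT112 gene, 2137 bases long, overlaps PRDX5 over 476 bases and ESRRA over 284 bases. PRDX5 changed by 0.10 (edgeR adjusted p = 0.00848) and ESRRA by -0.11 (edgeR adjusted p = 0.0208), and on the spike-in scale PRDX5 was at -0.10. The part that shared reads have in the small TRMT112 change was not tested. FTO does not overlap RPGRIP1L, which starts near it in the opposite direction and was at -0.02 (edgeR adjusted p = 0.727). Annotated pseudogenes of TRMT112 held at most 0.132% of its reads in any RNA-seq library, those of METTL5 at most 0.0973% and that of FTO at most 0.0336%.

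The deposited series table holds a second RNA measure, a signal normalized by the authors, in which the METTL5 change was larger, TRMT112 was near 0 and PCIF1 was higher without passing the test. METTL5 was at 1396.9, 1328.7, 1334.4 and 1310.6 units with DMSO and at 925.2, 939.5, 932.3 and 955.3 with STM2457. ALKBH5 was at 2256.5, 2419.6, 2320.4 and 2328.0 units with DMSO and at 3133.2, 3081.6, 3014.6 and 2917.0 with STM2457. Neither gene's arms overlapped. With limma on log2(signal + 1), METTL5 fell by 0.52 (adjusted p = 1.55e-08), ALKBH5 rose by 0.38 (adjusted p = 2.6e-07), FTO fell by 0.18 (adjusted p = 0.00226) and ZCCHC4 fell by 0.20 (adjusted p = 0.0164). TRMT112 was at 0.00 (limma adjusted p = 0.956) and PCIF1 at 0.09 (95% confidence interval 0.01 to 0.18, limma adjusted p = 0.0542). These 4 of 6 calls, 3 lower and 1 higher, stand beside 58.3% of the 12224 genes of the table, of which 32.6% were lower and 25.7% higher.

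The table signal moved lower against the counts for genes in general, with a median difference between the 2 log2 fold changes of -0.07 over 12163 genes. After that library-wide difference was removed, the log2 ratio of table signal to count of METTL5 averaged 0.60 ± 0.01 in the DMSO libraries and 0.56 ± 0.01 in the treated ones (SD, n = 4 each). The arms did not overlap for METTL5 (difference -0.04, exact permutation p = 0.0286, two-sided). That is the smallest p that 4 against 4 libraries can give. Adjusted over the 6 genes it was 0.171 (exact permutation test). A single gene could not pass there even at the smallest p, so no conclusion is drawn from that adjusted value. For the other 5 genes the exact permutation p was at least 0.0571. Which features of a transcript the table counts is not stated in the sources used here.

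In the ribosome footprints METTL5 was the member that passed the test, and it fell there too. It was at 984.9 and 1055.5 normalized units with DMSO and at 759.6 and 609.1 with STM2457, from 306, 219, 200 and 156 reads. Both STM2457 libraries lay below both DMSO libraries, a separation whose share over all genes was not counted. METTL5 footprints fell by 0.58 on the log2(signal + 1) scale (SE 0.15, 95% confidence interval -0.88 to -0.29, limma adjusted p = 0.00276). That placed it at rank 258 by size among 669 lower genes. 1 of 6 genes was thus called, against 15.7% of 10906 tested genes, of which 6.13% were lower and 9.59% higher, a share near the background. edgeR on the recovered reads gave -0.55 (adjusted p = 0.00383).

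The METTL5 footprint call depends on single libraries and on the fit. It was lost without DMSO replicate 2 (-0.53, limma adjusted p = 0.0556) and without STM2457 replicate 2 (-0.42, limma adjusted p = 0.0667). It was also lost in limma without a trend of variance with level (-0.58, limma adjusted p = 0.14), a setting that called 232 genes in place of 1715. The fit with the trend was taken as the main one after the calls without it had been seen. Leaving out any of the 4 libraries kept METTL5 lower, between -0.74 and -0.42.

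**Figure D3:**
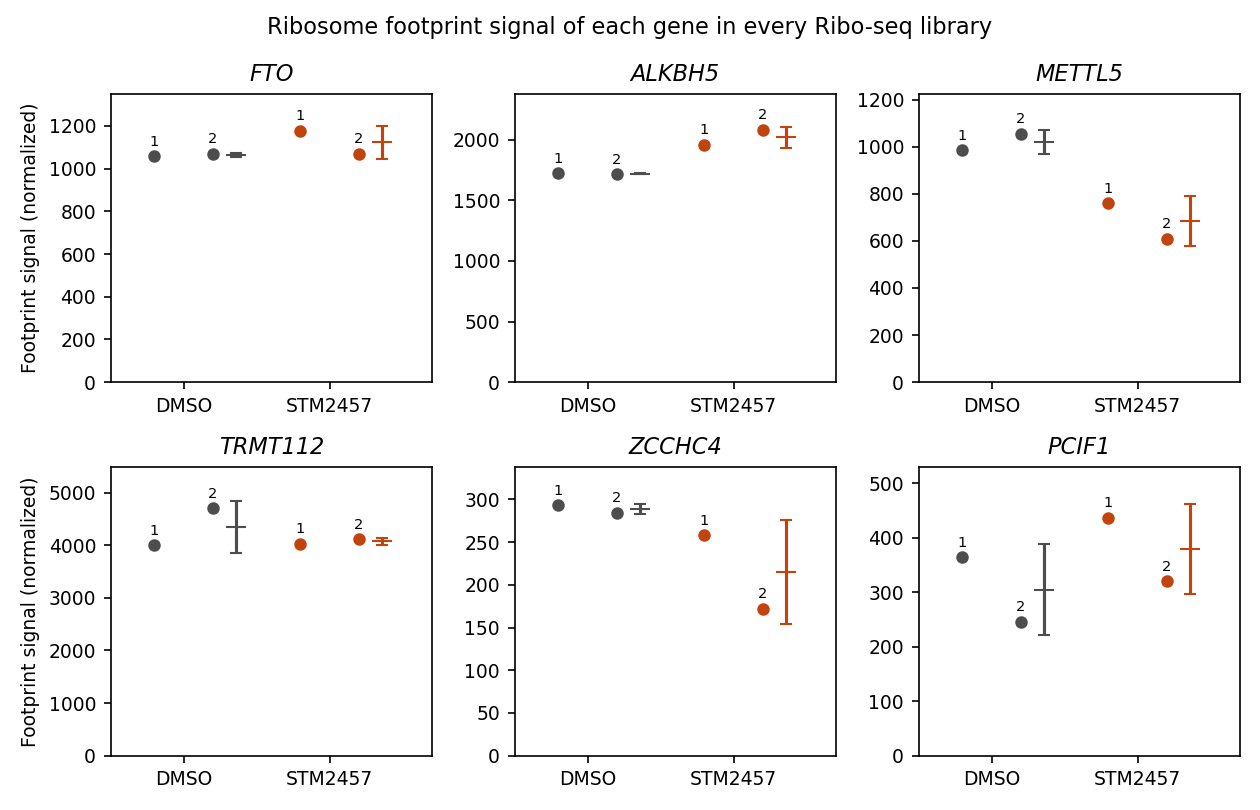
Footprint signal as normalized by the authors (vertical axes, each starting at 0) of the 6 genes in the 2 DMSO and 2 STM2457 Ribo-seq libraries, with the mean and SD. Both STM2457 libraries lie below both DMSO libraries for METTL5 and ZCCHC4 and above them for ALKBH5. The share of all genes with such separation was not counted. With 2 libraries per arm no exact permutation p under 0.333 is possible.

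ALKBH5 footprints were at 1721.9 and 1715.8 units with DMSO and at 1959.8 and 2081.0 with STM2457, from 535, 356, 516 and 533 reads. The STM2457 libraries were both higher, in the direction of the RNA. The log2 fold change of 0.23 (95% confidence interval 0.01 to 0.46) did not pass (limma adjusted p = 0.163). FTO footprints were at 1058.9 and 1070.0 units with DMSO and at 1177.4 and 1069.8 with STM2457, where STM2457 replicate 2 fell between the DMSO libraries. The log2 fold change was 0.08 (95% confidence interval -0.19 to 0.34, limma adjusted p = 0.769). In footprint reads, the ratio of ALKBH5 to FTO was 1.63 and 1.60 with DMSO and 1.66 and 1.95 with STM2457. The DMSO values lay below both STM2457 values.

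TRMT112 footprints were at 4000.6 and 4703.9 units with DMSO and at 4029.7 and 4119.1 with STM2457. The STM2457 libraries lay between the DMSO libraries (log2 fold change -0.09, 95% confidence interval -0.28 to 0.10, limma adjusted p = 0.597). The ratio of METTL5 to TRMT112 footprint reads was 0.246 and 0.224 with DMSO and 0.189 and 0.148 with STM2457, a mean log2 difference of -0.49 that lies beside the -0.48 of the RNA reads. The footprint ratio was lower in both STM2457 libraries, as the RNA ratio was, and it has no test.

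ZCCHC4 and PCIF1 had few footprint reads, 44 to 91 and 51 to 115 per library. ZCCHC4 was at 292.9 and 284.4 units with DMSO and at 258.3 and 171.8 with STM2457 (log2 fold change -0.45, 95% confidence interval -0.94 to 0.03, limma adjusted p = 0.223). The arms did not overlap, but the interval includes 0, and leaving out 1 library gave -0.74 (without STM2457 replicate 1) to -0.16 (without STM2457 replicate 2). PCIF1 was at 363.7 and 245.8 units with DMSO and at 436.8 and 320.2 with STM2457 (log2 fold change 0.32, 95% confidence interval -0.11 to 0.76, limma adjusted p = 0.36). Its arms overlapped, and leaving out 1 library gave 0.04 (without DMSO replicate 2) to 0.60 (without DMSO replicate 1). Changes of the size seen in its RNA were not detectable at this depth.

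Translational efficiency, the footprint signal over the RNA signal of the same arm, passed the test for none of the 6 genes. Among 10906 genes 1.04% were called by the interaction of assay and treatment in limma with a weight per assay. None of the 6 had an unadjusted p under 0.05 in that fit, and none passed in the edgeR interaction (lowest adjusted p = 0.233) or in limma with 1 spread for both assays (lowest adjusted p = 0.0914, for FTO). For METTL5, footprint signal over mean RNA signal was 0.734 and 0.786 with DMSO and 0.81 and 0.649 with STM2457. The arms overlapped, with an efficiency change of -0.07 on the log2 scale (95% confidence interval -0.35 to 0.21, limma adjusted p = 0.954). Its footprint and RNA decreases were therefore not distinguished from each other, within that interval.

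The erasers had efficiency estimates of opposite sign. FTO was at 1.72 and 1.74 with DMSO and at 2.16 and 1.97 with STM2457, where the arms did not overlap (log2 change 0.25, 95% confidence interval -0.06 to 0.57, limma adjusted p = 0.654). ALKBH5 was at 0.739 and 0.736 with DMSO and at 0.645 and 0.685 with STM2457, again without overlap (-0.15, 95% confidence interval -0.39 to 0.09, limma adjusted p = 0.79). Neither passed, and the difference between the 2 genes was not tested. Each value divides by the mean RNA signal of its arm, so the lack of overlap leaves out the RNA spread. The share of all genes without overlap in this ratio was not counted.

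TRMT112 had an efficiency change of -0.09 (95% confidence interval -0.30 to 0.11), ZCCHC4 of -0.26 (-0.80 to 0.29) and PCIF1 of 0.23 (-0.20 to 0.66), with limma adjusted p of 0.884, 0.875 and 0.84. The intervals of ZCCHC4 and PCIF1 are the widest of the 6, and these genes had the fewest footprint reads. In the authors' deposited table, which gives no p-value, the change of efficiency was 0.26 for FTO, -0.17 for ALKBH5, -0.04 for METTL5, -0.10 for TRMT112, -0.24 for ZCCHC4 and 0.24 for PCIF1. The authors' RNA means in that table match an average over replicates 1, 2 and 3 for each of the 12224 genes, so replicate 4 has no part in those ratios.

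Baseline efficiency set the genes apart. In the authors' deposited table the DMSO value was 2.03 for TRMT112, above 92.7% of the genes listed, and 1.73 for FTO, above 86.6%. ZCCHC4 followed at 1.34, above 70.9%. METTL5 at 0.754 and ALKBH5 at 0.737, both in the authors' deposited table, were above 32.5% and 31.6%, and PCIF1 at 0.532 was above 17.9%. The median over all genes of the authors' deposited table was 1.01. Per DMSO footprint library, METTL5 and ALKBH5 overlapped, while the TRMT112 values of 1.87 and 2.19 lay above both FTO values and the FTO values above the ZCCHC4 values of 1.38 and 1.34. PCIF1, at 0.639 and 0.432, lay below ALKBH5. With 2 libraries this order has no test.

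**Figure D4:**
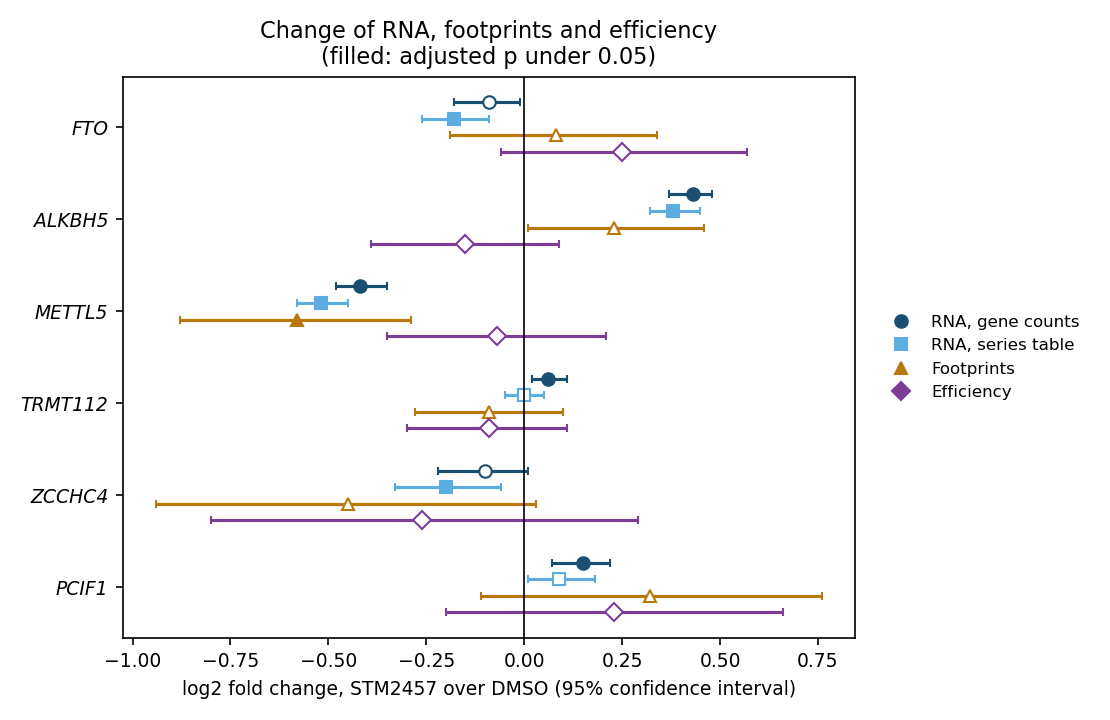
Log2 fold change of STM2457 over DMSO (horizontal axis) with 95% confidence intervals for RNA counts, RNA signal of the series table, footprints and efficiency of the 6 genes. Filled symbols have an adjusted p under 0.05, and METTL5 is the gene with filled symbols for both RNA and footprints.

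Other enzymes of the same families moved in both directions. The counts of called genes in each list below stand beside 47.8% of all tested genes, 26.2% higher and 21.6% lower, or with spike-in scaling 59.2%, 12.1% higher and 47.1% lower. Of the other 7 AlkB family genes, 3 were higher, 1 was lower and the median RNA log2 fold change was 0.03. With spike-in scaling the balance turned to 2 higher and 4 lower, with a median of -0.17. ALKBH1, a nucleic acid demethylase, rose by 0.70 (edgeR adjusted p = 1.38e-09), ALKBH8, a transfer RNA modification enzyme, by 0.45 (9.25e-06), and ALKBH2, a DNA repair enzyme, by 0.16 (0.00553). ALKBH3, another repair enzyme, fell by 0.15 (0.0148). On the spike-in scale ALKBH1 and ALKBH8 remained higher, at 0.50 and 0.25, and ALKBH2 was at -0.03. ALKBH1 and ALKBH8 footprints also rose, by 0.79 and 0.88 (limma adjusted p = 0.000137 and 0.000606).

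Of the 7 methyltransferases that TRMT112 activates, METTL5 included, 4 were higher and 2 lower in RNA, with a median of 0.07. With spike-in scaling this became 2 higher and 4 lower, at a median of -0.13. THUMPD3, which methylates guanosine in transfer RNA, rose by 0.39 (edgeR adjusted p = 3.4e-06), and THUMPD2, which acts on a spliceosomal RNA, by 0.17 (0.00103). BUD23, which methylates guanosine in small-subunit ribosomal RNA, was at 0.07 (0.046) and on the spike-in scale at -0.13. N6AMT1, which methylates a translation release factor, fell by 0.13 (0.0417), and TRMT11 was at 0.01 (0.887). METTL5 had the largest RNA decrease of the 7 partners under TMM and on the spike-in scale. In footprints METTL5 was the partner called lower, while ALKBH8 and THUMPD3 were called higher, the last at 0.38 (limma adjusted p = 0.0327).

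Of 12 genes listed as ribosomal RNA modification enzymes 5 were higher and 4 lower in RNA, with a median of 0.01. THUMPD1 is on this list but is a cofactor of cytidine acetylation in transfer RNA and not an enzyme. It rose by 0.67 (edgeR adjusted p = 2.56e-06) and RRP8, a base methyltransferase of the large subunit, by 0.38 (8.41e-07). EMG1 and DIMT1, both small-subunit methyltransferases, fell by 0.26 (7.89e-06) and 0.24 (3.8e-05). In footprints 3 of the 12 were called higher and 1 lower. THUMPD1 footprints rose by 0.78 (limma adjusted p = 4.18e-06), RRP8 footprints by 0.51 (0.0059) and those of NOP2, a cytosine methyltransferase named here after its values were seen, by 0.76 (4.37e-09). NOP2 was at only 2.55 ± 0.709 CPM in the DMSO count files and 2.45 ± 0.374 CPM in those of STM2457 (SD, n = 4 each). Its efficiency, set against the RNA signal of the series table, changed by 0.15 (limma adjusted p = 0.662). The NOP2 footprint rise was thus not distinguished from the change of that RNA signal, which differs from its gene counts. EMG1 footprints fell by 0.46 (0.00332), and DIMT1 was at -0.23 (0.273). For RNA on the spike-in scale 2 of the 12 were higher and 8 lower (median -0.19), so the list's balance depends on the scale.

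Of 9 genes of cap formation and cap binding RNA of 5 was higher and of 1 lower. Their median log2 fold change was 0.18. CMTR2, which methylates the second transcribed nucleotide, rose by 0.82 (edgeR adjusted p = 5.65e-08) and TGS1, a cap hypermethylase, by 0.28 (0.000169). NCBP2, a nuclear cap-binding subunit, rose by 0.18 (0.000916), and CMTR1, which methylates the first nucleotide, fell by 0.12 (0.00207). On the spike-in scale CMTR2 was at 0.62 and NCBP2 at -0.02, and 1 of the 9 was higher and 3 were lower. In footprints CMTR2 rose by 1.19 (limma adjusted p = 0.000315) and TGS1 by 0.35 (0.0494), and none of the 9 was called lower. PCIF1, at 0.15, lay near the median of this list.

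In RNA the METTL3 writer complex had called genes in 1 direction. Of 8 writer complex genes 7 were higher and none lower, with a median of 0.62, and with the spike-ins 5 were higher and none lower. METTL16, which methylates the U6 spliceosomal RNA, rose by 0.71 (edgeR adjusted p = 1.31e-09) and METTL4 by 0.60 (2.7e-07). In footprints 4 of the 8 writer complex genes were called higher and none lower. RBM15B, an adaptor subunit, rose by 1.14 in RNA (edgeR adjusted p = 2.17e-11) but was at 0.16 in footprints (limma adjusted p = 0.583). Its efficiency, the ratio of the 2 signals, fell by 1.03 (limma adjusted p = 0.000107). WTAP, a scaffold subunit, rose by 0.80 in RNA (edgeR adjusted p = 1.38e-10) and by 1.76 in footprints (limma adjusted p = 3.49e-20). WTAP had an efficiency rise of 0.65 (limma adjusted p = 0.00418). Neither METTL16 nor METTL4 passed in footprints, at 0.37 (0.08) and -0.30 (0.516). As a description with no test, the RNA median of the 6 genes followed here was -0.01. That of all genes was 0.00 and that of the writer complex 0.62. The 6 genes include the cofactor TRMT112 and leave out METTL16 and METTL4. On the spike-in scale METTL16 and METTL4 RNA remained higher, at 0.51 and 0.41. The value of -0.01 is thus not a median of all METTL3-independent methyltransferases.

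**Figure D5:**
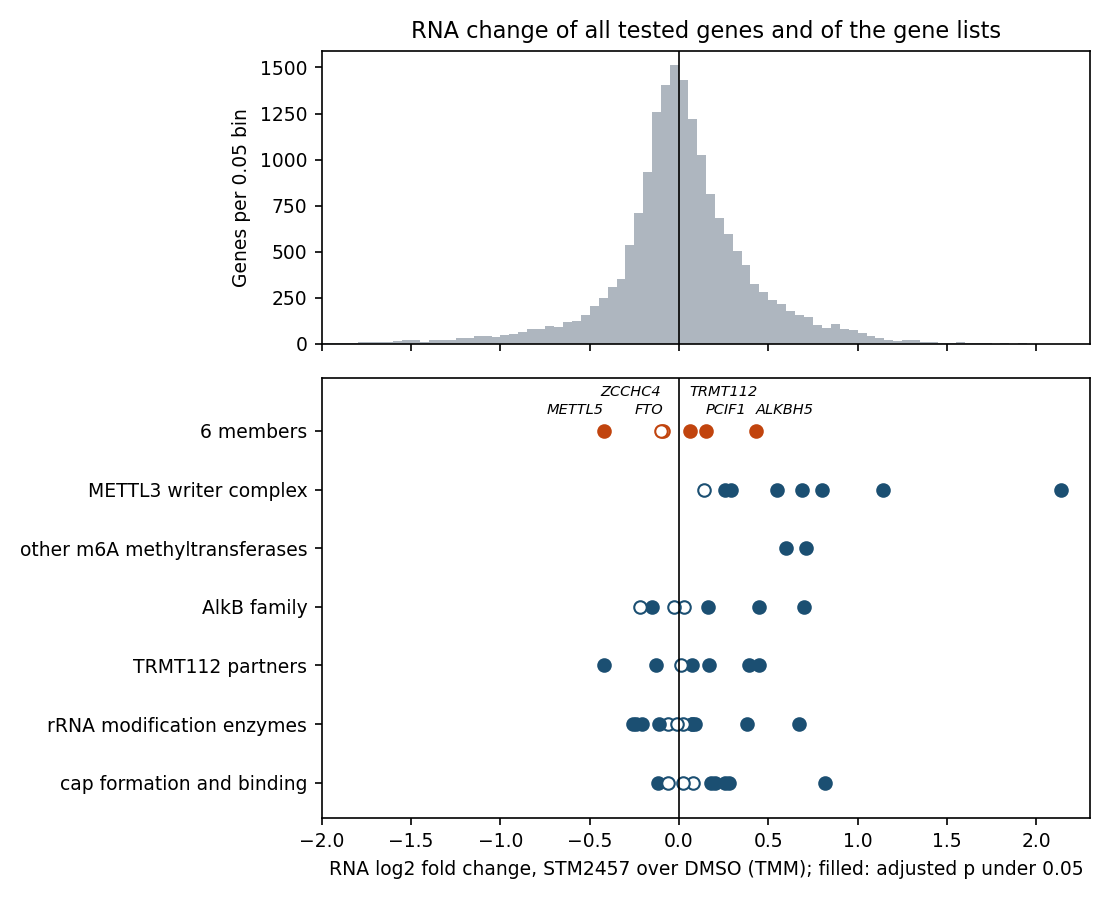
Top, number of tested genes per bin of RNA log2 fold change, with bins from -2 to 2 on an axis from -2.0 to 2.3. The 53 genes beyond -2 and the 24 genes beyond 2 are not drawn there. Bottom, each gene of the lists at its RNA log2 fold change, filled where the edgeR adjusted p is under 0.05. The 6 genes followed here are in the top row, between METTL5 at -0.42 and ALKBH5 at 0.43.

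The genes with the most similar RNA pattern were found by Pearson's r of log2 CPM across the 8 RNA-seq libraries among 11136 genes, as a description with no test. These were RRAGA (r = 0.999) and PCYT1A (0.998) for ALKBH5, and TARDBP (0.999) and C22orf46P (0.999) for METTL5. With arms that stand this far apart, such an r mainly compares the 2 arms. For PCIF1 they were CYB5D1 (0.99) and ZNF689 (0.988), and for TRMT112 C11orf96 (0.989) and EFNA4 (0.987). For FTO they were TACC1 (0.974) and PARM1 (0.973), and for ZCCHC4 GINS1 (0.955) and USP4 (0.951).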

How the data were processed

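RNA-seq files hold raw counts per gene, and the series table holds signal per library normalized by the authors, per the file headers. Its footprint values step by a fixed amount per library (100% of values within 0.1 of a whole step), so reads were recovered. Its efficiency ratio and log2 change are the authors' own values, per the file headers. The table's columns named WT were read as the DMSO arm. Per the submitters' processing notes, STAR 2.7.3a, UMI-tools 1.1.2, Subread 2.0.3 and DESeq2 were among the tools, with GRCh38.p12. RNA counts of 17807 genes were tested with edgeR 4.0.16 (quasi-likelihood, TMM, filterByExpr) and R 4.3.3. Footprints and efficiency of 10906 genes, kept at 10 or more recovered reads per library on average, were tested with limma 3.58.1 on log2(signal + 1) with a mean-variance trend, efficiency with a weight per assay. These fold changes are on that scale. The trend was adopted after calls without it were seen. In simulated data with 200 of 10906 genes changed, footprint calls with the trend recovered 64% of 2-fold changes, with 5.26% of 114 calls false. Without the trend 0% of 2-fold and 52% of 3-fold changes were recovered, with 0% of 26 calls false. A far larger share of genes was called in the data, so these rates may differ there. For RNA 82% of 2-fold changes were recovered, with 5.77% of 156 calls false, and for efficiency 52%, with 7.61% of 92 calls false. None of the 6 genes changed 2-fold in the main fits. At 1.25-fold and 1.5-fold, recovery was 48% and 68% for RNA and 10% and 44% for footprints with the trend. For efficiency it was 2% and 22%. Alternatives were DESeq2 1.42.0, ERCC scaling, other filters and pseudocounts, a replicate block and leaving out each library. The members and lists were chosen with earlier results of these data known. The table's RNA test, read ratios, neighbours, pseudogenes and motifs were chosen after the files were opened. Named genes were the 6 members, METTL3, up to 4 passing genes of each list with the smallest p and failing partners, and the 2 most similar genes of each member among those with a mean of at least 5 CPM.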

Additional observations from a re-analysis of the deposited data

How the results depend on the processing

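Of 216 values of the 6 genes under alternatives, 184 kept their direction and their side of the threshold, among them all 15 RNA values of ALKBH5 (0.23 to 0.44) and of METTL5 (-0.61 to -0.40). The cause of the changes below was not tested. FTO RNA passed at -0.11 with DESeq2 (adjusted p = 0.042), -0.29 with ERCC scaling, -0.10 without a filter on low counts and -0.18 with the table signal, and leaving out 1 library gave -0.12 to -0.07. TRMT112 RNA did not pass at 0.05 with DESeq2 (adjusted p = 0.121), 0.06 without the filter, 0.07 in replicates 1 and 2, 0.04 in replicates 3 and 4 and 0.0017 with the table signal, reversed to -0.13 with ERCC scaling, and without 1 library was at 0.06 to 0.07. ZCCHC4 RNA passed at -0.30 with ERCC scaling and -0.20 with the table signal. PCIF1 RNA reversed to -0.05 with ERCC scaling and did not pass at 0.15 in replicates 3 and 4 or 0.09 with the table signal. ERCC scaling gave 2159 higher and 8383 lower genes, against 4669 and 3842.

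Same-numbered RNA-seq libraries of the arms deviated together weakly (r = 0.151, 0.227, 0.148 and 0.0763). DMSO replicates 1, 2 and 3 each correlated best with the STM2457 library of the same number, and DMSO replicate 4 with STM2457 replicate 3. The labels do not state that the numbers pair libraries, so they were not taken as pairs in the main test. Across the arms, replicates 1 and 2 did deviate together (r = 0.111 to 0.227), as did replicates 3 and 4 (r = 0.0763 to 0.275). Between these 2 sets every r was negative (-0.256 to -0.085). Deviations were taken from the arm mean and sum to 0, so positive r within the sets brings negative r between them. The negative values are thus no separate observation. The labels do not name such a grouping, and the main test leaves it out. With a replicate block FTO RNA was -0.09 and passed (edgeR adjusted p = 0.0233), no other gene of the 6 changed its call, METTL3 RNA passed at 0.14 (edgeR adjusted p = 0.000534), which made 8 of 8 writer complex genes higher, the AlkB family gene ALKBH6 also passed as lower (edgeR adjusted p = 0.0394), and 9542 RNA, 1719 footprint and 118 efficiency calls were made.

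Footprint calls numbered 1715, 1004 to 1464 without 1 library (1004 without DMSO replicate 2) and 232 without the trend. METTL5 footprints ran from -0.74 to -0.42 and TRMT112 from -0.21 to 0.03 without 1 library, and METTL5 was at -0.58 without the trend. Efficiency calls numbered 113, 825 with 1 spread for both assays, 425 with the edgeR interaction, 70 without the trend and 37 to 100 without 1 footprint library. Without 1 footprint library, efficiency of TRMT112 ran from -0.21 to 0.02, PCIF1 from -0.05 to 0.51, METTL5 from -0.23 to 0.09 and ZCCHC4 from -0.55 to 0.04. With 2 footprint libraries per arm, the depth of ZCCHC4 and PCIF1 limits what can be seen.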
